A study of Mus musculus with 3 samples.

Results

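Isolated autosomal CCCGGG sites with low methylation were described in ID8, an ovarian cancer cell line of C57BL/6 mice that the labels class as female ovarian surface epithelial cells. A site was taken as isolated when no other listed site lay within 500 bp, and as low when its mean methylation over the libraries was under 10%, with at least 10 reads in each of the 3 libraries ("covered"). This rule chose 1598 of the 5817 covered isolated sites on chromosomes 1 to 19, out of 116728 isolated autosomal sites listed and 173449 listed sites in all. The 3322 covered isolated sites at 70% or more ("high") served for comparison, and the remaining 897 are called partial. All samples were untreated cultures of the same line in RPMI medium with fetal bovine serum, so there was 1 group of 3 libraries and no control. The samples are called independent by their submitters without mention of separate cultures. The spread between libraries, and the p-values that rest on it, may therefore be technical. Total reads were 7689526, 9190335 and 10361138 in replicates 1, 2 and 3.

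The methylation measured here is that of the cytosine in a CG pair, the form that DNA methyltransferases copy to the new strand at each cell division. In mammalian genomes most CG pairs are methylated, and the main exceptions are dense CpG islands at gene starts and some distal regulatory elements, where bound proteins keep methylation away. Among the covered isolated sites here, 27.5% were low and 57.1% high, so the low ones are a minority. The density of CG pairs around the sites was not measured. In digital restriction enzyme analysis of methylation (DREAM), SmaI first cuts unmethylated CCCGGG and leaves an end reading GGG, then XmaI cuts the methylated copies and leaves CCGGG. Each read is thus the end of a fragment that runs from a site to another, and the methylation level of a site is its share of CCGGG reads. Positions are given on mm9, as in the deposited tables. These tables carry no gene names and no flanking sequence. Without gene models for mm9, sites are named by position only. The class label could be checked only against the counts themselves.

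The low isolated sites were close to unmethylated rather than near the limit. No methylated read was counted in any library at 741 of them (46.4%), and the median level was 0.166%. The mean level was 1.47% ± 0.0330 (SD, n = 3), being 1.44%, 1.49% and 1.50% in replicates 1, 2 and 3. These levels chose the sites and are given as a description. Depth limits what a zero means: the sites without a methylated read had a median of 114 summed reads (all libraries together), and a count of 0 in 114 reads allows a level of up to 2.63% (3 reads). Among the 547 sites with at least 300 summed reads, 363 (66.4%) lay at 0.5% or less and 111 (20.3%) above 2%. A tail of measurable methylation therefore remained in deeply read sites. The median site had only 69, 46 and 50 reads in the 3 libraries. An upper bound over 10% (exact Clopper-Pearson interval, 95%, on summed reads) was found at 257 sites (16.1%), which had a median of 60 summed reads. These intervals and limits cover counting error only.

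**Figure D1:**
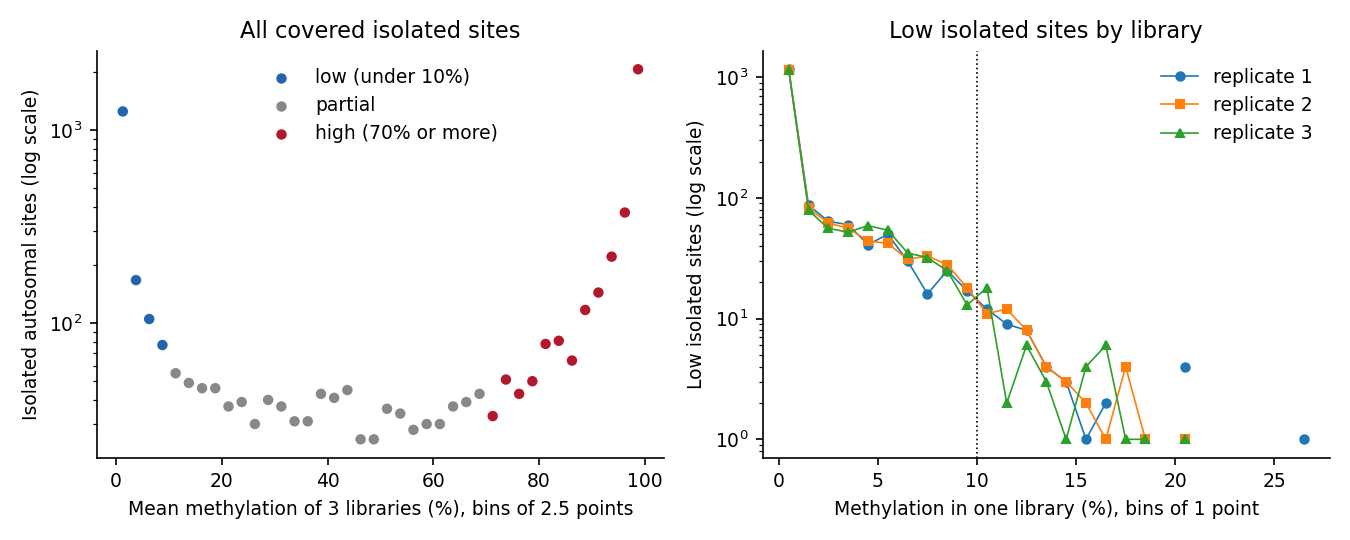
Left, number of covered isolated autosomal sites (log scale) by mean methylation in bins of 2.5 points, coloured by class. Right, number of the 1598 low sites (log scale) by their level in each library in bins of 1 point, with the 10% limit dotted; 1164, 1155 and 1150 of them lie under 1% in replicates 1, 2 and 3, and single libraries put 43 to 47 sites at 10% or more.

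The low level held in libraries whose levels had no part in the choice. With replicate 1, 2 or 3 left out in turn, 1713, 1710 and 1698 sites were chosen on the other pair. Of these, 1590, 1611 and 1596 also had at least 10 reads in the library left out, and only they were followed. There, 96.4%, 94.8% and 95.9% of them were under 10%, with mean levels of 1.59%, 1.94% and 1.71%. None of these sites reached 70% there. The highest single level was 60%, in replicate 2. Of the 1598 sites, 1482 (92.7%) were low in every library and 116 were low by their mean only.

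Near the limit, the 5 members with the highest means lay between 9.86% and 9.97%, and the 5 isolated sites just over it between 10.1% and 10.2%. The site on chromosome 16 at 27389842, the member nearest the limit, was methylated in 5 of 24, 0 of 11 and 1 of 11 reads in replicates 1, 2 and 3, so its class rests on a few reads. Just outside, the site on chromosome 14 at 35645087 was measured well, with 35 of 396, 39 of 336 and 33 of 332 reads (10.1% ± 1.39, SD, n = 3). There were 24 members at 9% or more and 17 isolated sites from 10% to under 11%.

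Differences between libraries were tested site by site with a two-sided Fisher's exact test, adjusted by Benjamini-Hochberg over all 24112 covered sites. With a threshold of 0.05 on the adjusted p and a minimum change of 20 points, 0 of the 1598 members were called in each pair of libraries. The background over the whole table was 0.00415% for replicate 1 against 2, 0.00415% for 1 against 3 and 0% for 2 against 3. Without the minimum difference it was again 0 members, on a background of 0.0415%, 0.0373% and 0.0249%. At an unadjusted p under 0.05 there were 9, 13 and 11 members, on a background of 3.02%, 3% and 2.84%. The chi-square test gave 0 members at the adjusted threshold as well, with or without the minimum difference (background 0.00415%, 0.00415% and 0% with it, 0.0373%, 0.0373% and 0.0249% without). Its unadjusted counts were 26, 23 and 17, on a background of 3.94%, 4.06% and 3.73%. A site under 10% in the mean has little room to differ by 20 points, so these counts are partly set by the rule. The 5 members with the largest spread were all shallow. The widest, on chromosome 19 at 5705612, had 7 of 26 methylated reads in replicate 1 and 0 of 18 in both others.

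Depth was the first measure compared that the rule used only as a minimum. Low isolated sites were read more deeply than high ones: their median was 69, 46 and 50 reads in replicates 1, 2 and 3, against 25, 27 and 26 at high sites. The ratio was 2.76-fold, 1.70-fold and 1.92-fold, a mean of 1.06 ± 0.36 on the log2 scale (SD, n = 3). Replicate 1 stood apart here: it had the fewest reads in total, yet the low isolated sites took 3.40% of its reads against 2.41% and 2.37% in replicates 2 and 3. A single site, described below, held 33.0% of all reads at low isolated sites. High sites with a listed site within 1 kb were also deepest in replicate 1, with medians of 52 reads against 36 and 40. Among sites with a neighbour that near, the ratio of low to high was 1.37-fold, 1.31-fold and 1.30-fold. In the exact sign-flip test over libraries, the depth ratio and each of the following comparisons of low with high sites gave p = 0.25 (two-sided) where all 3 libraries had the same direction. That is the smallest p that 3 libraries allow, so the size and spread carry the comparison.

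The ratio depended on the distance to the nearest listed site, and low sites were the shallower ones beyond 1 kb. With a listed site within 1 kb, the low sites had medians of 71, 47 and 52 reads and the high sites 52, 36 and 40, a ratio of 1.32-fold (0.40 ± 0.039 log2, SD, n = 3). Among sites 500 to 600 bp from their neighbour the low ones had 186, 145 and 162.5 reads against 143, 105 and 115.5, which is 0.45 ± 0.059 log2. From 600 to 700 bp the difference was 0.37 ± 0.056 and from 700 to 800 bp 0.22 ± 0.10. It was gone from 800 to 900 bp, at -0.03 ± 0.054 with medians of 14 to 16 reads in either class (exact sign-flip p = 1.0), and turned from 900 to 1000 bp to -0.28 ± 0.11, where 22 low and 55 high sites were left. Beyond 1 kb the medians were 12, 14 and 14 reads at 35 low sites against 16, 22 and 19 at 1424 high sites, or -0.50 ± 0.13 log2. The 4 low sites beyond 10 kb went the other way, with medians of 34, 31 and 37 reads against 16, 23 and 20 at 463 high sites. From 800 bp to 10 kb, the medians of low sites were close to the minimum of 10 reads, whose part in these differences was not tested. With isolation defined by 750 bp in place of 500 bp, which leaves 236 low sites, the log2 ratio turned to -0.29 over all distances and to -0.060 within 1 kb.

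**Figure D2:**
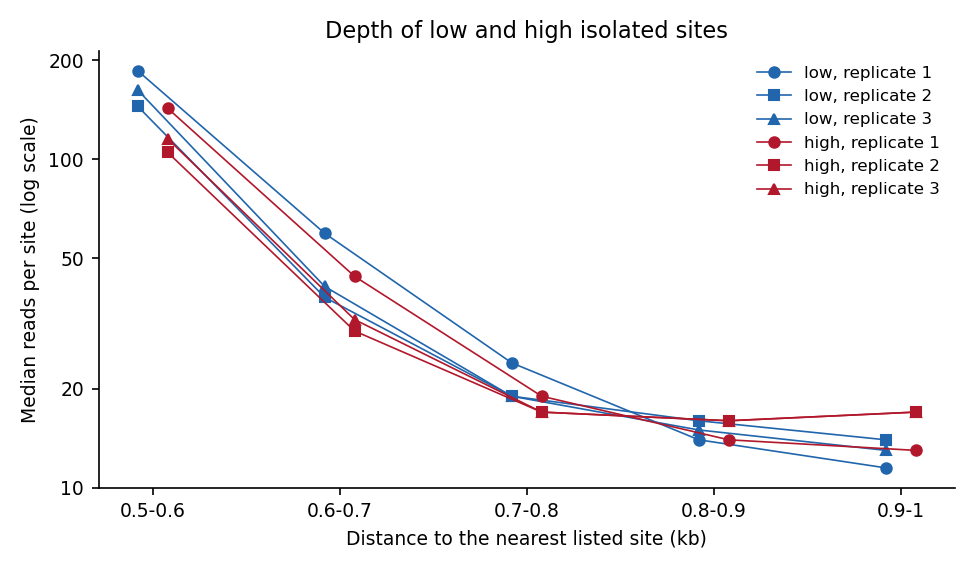
Median reads per site (log scale) of low and high isolated sites by distance to the nearest listed site in bins of 100 bp, for each library. Reads fall steeply with distance in both classes, low sites lie above high sites up to 800 bp in every library, and replicate 1 is the deepest library up to 800 bp.

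The classes also differed in their distance to the nearest listed site. Of the low isolated sites, 1563 had a listed site within 1 kb and 35 (2.19%) did not, whereas 1424 of the high sites (42.9%) did not. With classes assigned in each library, the share with a site within 1 kb was 97.8% ± 0.0502 for low and 57.3% ± 0.0921 for high sites (SD, n = 3), and the median distances were 618 ± 0.764 and 755 ± 1.04 bp. The partial sites resembled the low ones, with 20 of 897 (2.23%) beyond 1 kb. Since a site's position is fixed, these SDs reflect only the classing. The medians depend on depth. Their difference, low minus high, was -137 bp ± 0.289, but 1 bp with at least 50 reads required in every library and -373.5 bp without replicate 1. The difference in the share within 1 kb was 40.5 points ± 0.129 and shrank to 4.41 points at 50 reads.

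The low share was nearly level up to 900 bp and then dropped. It was 38.9% ± 0.281 (SD, n = 3) of covered sites at 500 to 600 bp, 33.5% ± 0.102 at 600 to 700, 36.2% ± 0.377 at 700 to 800 and 36.1% ± 1.64 at 800 to 900. At 900 to 1000 bp it was 21.6% ± 3.40 (22 of 102 sites), and from 1 to 2 kb 11.6% ± 0.679 (26 of 225). Beyond 2 kb there were 9 low and 1237 high sites. Coverage fell along the same axis, from 69.2% of the listed isolated sites at 500 to 600 bp to 5.53% at 900 to 1000 bp and 1.40% beyond 1 kb, so a loss of low sites from the tables and a true lack of them cannot be told apart.

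**Figure D3:**
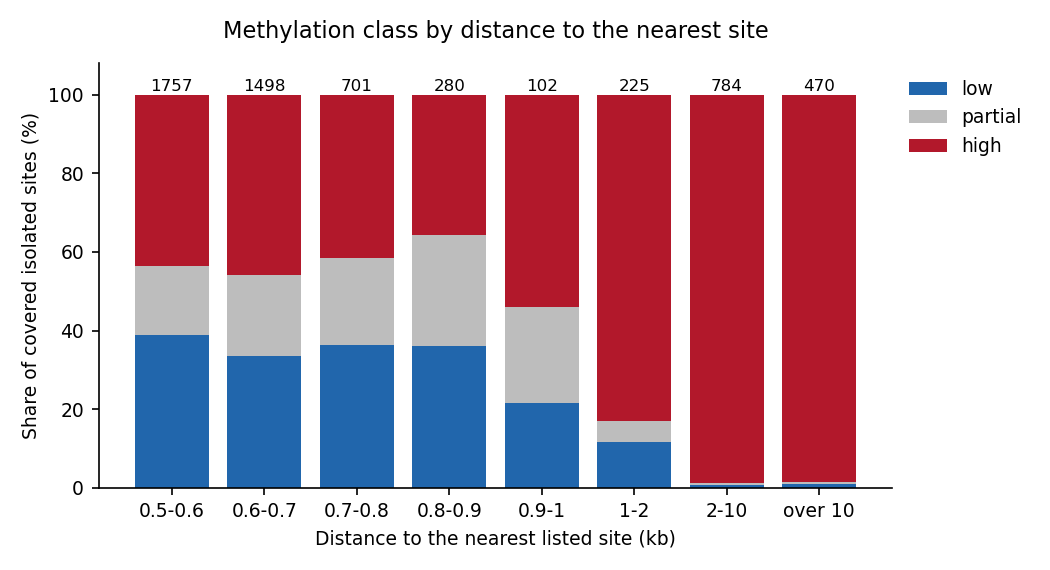
Share of covered isolated sites that are low, partial or high by distance to the nearest listed site in kb; the number of covered sites stands above each bar. The low share lies between 33.5% and 38.9% up to 0.9 kb and under 1% beyond 2 kb.

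The 35 low sites without a neighbour within 1 kb were mostly shallow, with a median of 41 summed reads, and 19 had no methylated read. Chromosomes 15 and 19 held 7 and 10 of them, together 48.6%, against 247 of the 1424 high sites at such distances (17.3%). These chromosomes also had high shares of listed isolated sites covered, 7.52% and 9.81%, against 3.28% to 7.32% on the other autosomes; the part of depth in this was not tested. Only 3 of the 35 had 100 or more summed reads, and all 3 are among the 5 most remote members described next.

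The most remote member was also the deepest. This site, on chromosome 11 at 108873185, lay 28942 bp from the nearest listed site and was methylated in 52 of 73705, 63 of 78998 and 45 of 88119 reads in replicates 1, 2 and 3. Its level was 0.0671% ± 0.0146 (SD, n = 3), with exact 95% Clopper-Pearson intervals of 0.0527% to 0.0925%, 0.0613% to 0.102% and 0.0373% to 0.0683%. It alone held 33.0% of all reads at low isolated sites and 81.7 times as many as the next deepest. By summed reads (240822) it ranked 4 among all covered sites. Of the 6 deepest, the other 5 lie on chromosome 17 between 39981186 and 39985472. Its listed neighbours held 5 and 18 summed reads. Whether so many reads come from a single locus was not tested.

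Farther out than most, the remaining remote members differed in depth. On chromosome 16, the site at 57391706, 8488 bp from its neighbour, had 0 of 101, 0 of 179 and 1 of 222 methylated reads (0.150% ± 0.260). The site on chromosome 11 at 3065503, 16067 bp away, had no methylated read among 33, 33 and 45, which allows up to 2.70% of the summed reads. On chromosome 3, the site at 46240017 had none among 15, 29 and 29, and no covered site that was low in all libraries lay within 1155710 bp. The site on chromosome 8 at 4087586 had 0 of 35, 2 of 13 and 2 of 24, so its mean of 7.91% came from replicates 2 and 3 alone.

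Among the other deep members, pairs of sites with nearly equal reads were found beside sites that stood alone in depth. On chromosome 19, the sites at 32462328 and 32462842 had 2909 and 2946 summed reads and levels of 0.207% ± 0.0187 and 0.0332% ± 0.0574 (SD, n = 3). By library they held 1047 and 1068, 878 and 873, and 984 and 1005 reads, nearly equal counts at both ends of a 514 bp interval. The site on chromosome 15 at 101084352 went otherwise. It had 616, 593 and 652 reads with no methylated read, while its nearest listed site, 503 bp away, had 6, 5 and 8. Among the 10 deepest members only the one on chromosome 6 at 124365418 exceeded 1%, with 13 of 668, 9 of 428 and 6 of 529 methylated reads (1.73% ± 0.520).

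Whether the nearest listed site was low as well was asked next. The rule did not use the neighbour's level to choose a site. However, 462 of the 738 low neighbours of low sites within 1 kb were isolated, and so were members chosen by their own level. The nearest listed site was covered for 1111 low and 1431 high isolated sites. Of these neighbours, 744 (67.0%) were low, 174 partial and 193 high beside low sites, against 300 (21.0%), 253 and 878 (61.4%) beside high sites. By library the low share was 66.8% ± 0.554 and 21.2% ± 0.247, a difference of 45.6 points ± 0.799 (SD, n = 3; exact sign-flip p = 0.25), in 3 of 3 libraries. Up to 1 kb it was 51.6 points ± 0.761 at 500 to 600 bp, 47.0 ± 0.592 at 600 to 700, 49.2 ± 2.20 at 700 to 800 and 46.6 ± 4.26 at 800 to 1000. Beyond 1 kb, where the neighbours of only 8 low and 170 high sites were covered, it was 22.0 ± 2.36. Pairs of isolated sites enter from both ends, so these counts are not of independent pairs.

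The share also differed with the neighbour's own surroundings. Where the nearest site within 1 kb belonged to a group, with another listed site within 500 bp of it, 276 of 337 covered neighbours of low sites were low (81.9%), with a median level of 0.221%. Where it was isolated too, 462 of 766 were low (60.3%), with a median of 2.82%. The same shares beside high isolated sites were 53 of 233 (22.7%) and 162 of 1028 (15.8%). This difference between kinds of neighbour was not tested.

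Low isolated sites seldom formed longer runs. Counting members that follow each other in the list no more than 1 kb apart, 1119 stood alone and 479 (29.98%) were in runs. With a listed site within 1 kb, 30.6% of low and 36.4% of high isolated sites were in runs of their own class. The members formed 233 runs of 2, 3 of 3 and 1 of 4. The longest, on chromosome 2 from 30327459 to 30329052, had 992, 1342, 1657 and 1790 summed reads and 2 methylated reads in all, both at 30327962 in replicate 1. On chromosome 7, the run from 16632336 to 16633387 likewise held 2 methylated reads, among 1219, 1931 and 731. The run on chromosome 8 from 127421131 to 127422403 held 1. Unlike these, the run on chromosome 1 from 192004261 to 192005521 was uneven, at 4.44% ± 7.70, 5.71% ± 2.61 and 0.187% ± 0.324 (SD, n = 3). Its first site had only 37 summed reads, so the level there is uncertain.

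Some low sites stood directly beside a methylated one. The 193 members whose nearest listed site was covered and high included sites read more than 200 times in every library. The 10 deepest of them had 852 to 1618 summed reads and levels of 0.0903% to 8.88%, with neighbours at 95.8% to 100%. On chromosome 11, the site at 68505704 had 0 of 402, 0 of 299 and 1 of 369 methylated reads, and its neighbour 514 bp away was at 100%, 100% and 98.4%. Another on the same chromosome, at 70043892, had 0 of 265, 0 of 291 and 1 of 296, with its neighbour 511 bp away at 99.4%, 99.5% and 99.4%. The site on chromosome 2 at 152560992 was at 0.112% ± 0.194 and its neighbour at 99.2% ± 0.253 (SD, n = 3). In these 3 pairs the step from unmethylated to methylated took place within about the length of a fragment and was the same in each library. Others were less complete. The site on chromosome 11 at 22758717 had 28 of 370, 28 of 300 and 33 of 339 methylated reads (8.88% ± 1.15) beside a site with 994 methylated reads of 994. On chromosome 5, the site at 122292351 was at 4.97% ± 1.01 beside one at 97.0% ± 1.14.

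The numbers of reads at the ends of an interval were less alike where the levels differed. Pairs were taken in which each site is the other's nearest, both are isolated and the next site on either outer side is over 2 kb away, so that the interval between them is the only short one. In the 153 pairs of low sites the median absolute log2 ratio of reads between the ends was 0.10 ± 0.015 by library (SD, n = 3), or 1.07-fold, and 6.54% differed more than 2-fold in summed reads. In the 104 pairs of a low and a high site it was 0.71 ± 0.069, or 1.63-fold, and 38.5% differed more than 2-fold. The 228 pairs of high sites, at 0.14 ± 0.014 and 4.82%, were like the low pairs. The imbalance had no common direction, since the low site was over 2-fold deeper in 18 mixed pairs and over 2-fold shallower in 22. Mixed pairs were also shallower: median summed reads were 108.5 at their low and 135 at their high ends, against 180 in low pairs and 166 in high pairs. The part of depth in the read ratios was not tested. The low sites paired with a partial neighbour were between, with 20 of 107 (18.7%) over 2-fold.

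**Figure D4:**
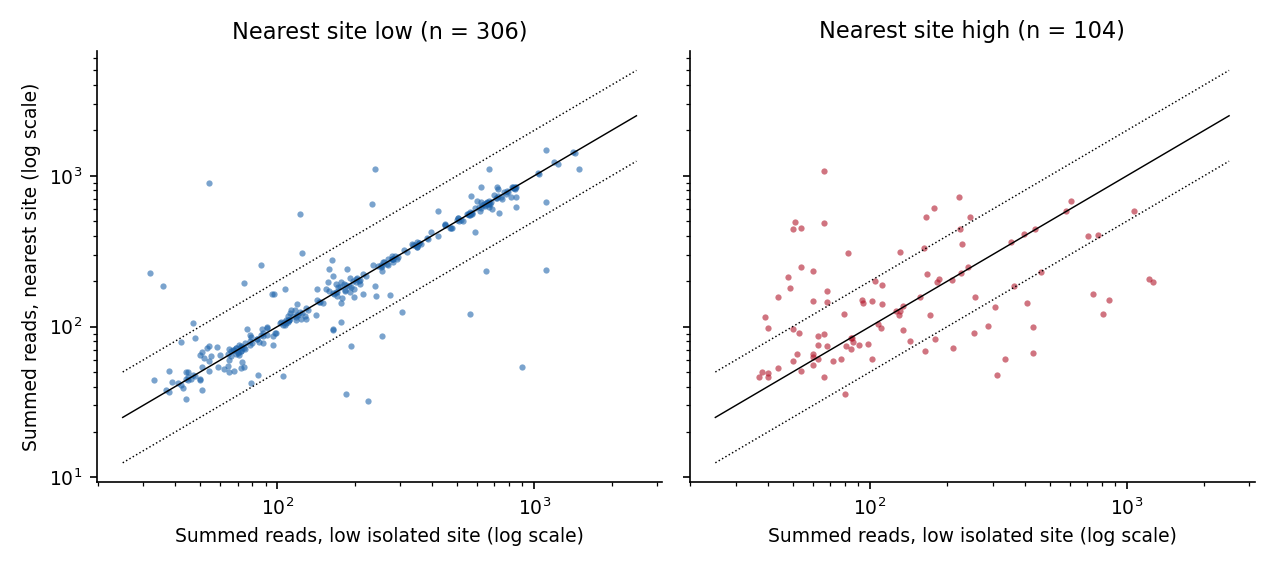
Summed reads of a low isolated site against its nearest site (both log scale) for mutual nearest pairs within 1 kb with no other listed site within 2 kb on the outer sides; the left panel shows each of the 153 low pairs from both ends. The solid line marks equal reads and dotted lines a 2-fold difference; 6.54% of the low pairs and 38.5% of the mixed pairs lie outside them.

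A pair with a ratio well above that median, of the kind with the low end deeper, shows how such reads fall. On chromosome 7, the low site at 57546416 had 478, 340 and 406 reads in replicates 1, 2 and 3 and levels of 0.837%, 0.882% and 1.23%. Its high neighbour at 57546918 had 85, 46 and 75 reads at 94.1%, 97.8% and 98.7%. The next listed site on the other side of the low site lay 29961 bp away. In all libraries the low end of this 502 bp interval was several times deeper than the high end.

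The resemblance of surrounding sites ended within a few kb. Around low isolated sites with a listed neighbour within 1 kb, 69.8% ± 0.518 (SD, n = 3) of covered sites at 0.5 to 1 kb and 69.5% ± 0.650 at 1 to 2 kb were low, where 45.7% ± 0.0255 of all covered autosomal sites were. Around high isolated sites the shares were 18.8% ± 0.452 and 35.4% ± 0.869. From 2 kb outwards the order turned. Low sites made up 39.8% ± 1.18 at 2 to 5 kb, 34.0% ± 0.204 at 5 to 10 kb and 37.1% ± 0.219 at 10 to 20 kb around low isolated sites, against 43.6% ± 1.44, 44.6% ± 0.867 and 44.9% ± 0.354 around high ones. At 5 to 10 kb the difference was the same way in 3 of 3 libraries and rested on 497 and 691 pairs of sites, which are not independent. Beyond 100 kb both series lay between 44.2% and 45.6%. All these shares class sites by their mean level, while the SDs come from shares classed in each library. The library shares need not centre on the printed share. At 10 to 20 kb around low isolated sites they were 36.8%, 36.3% and 36.5% in replicates 1, 2 and 3.

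**Figure D5:**
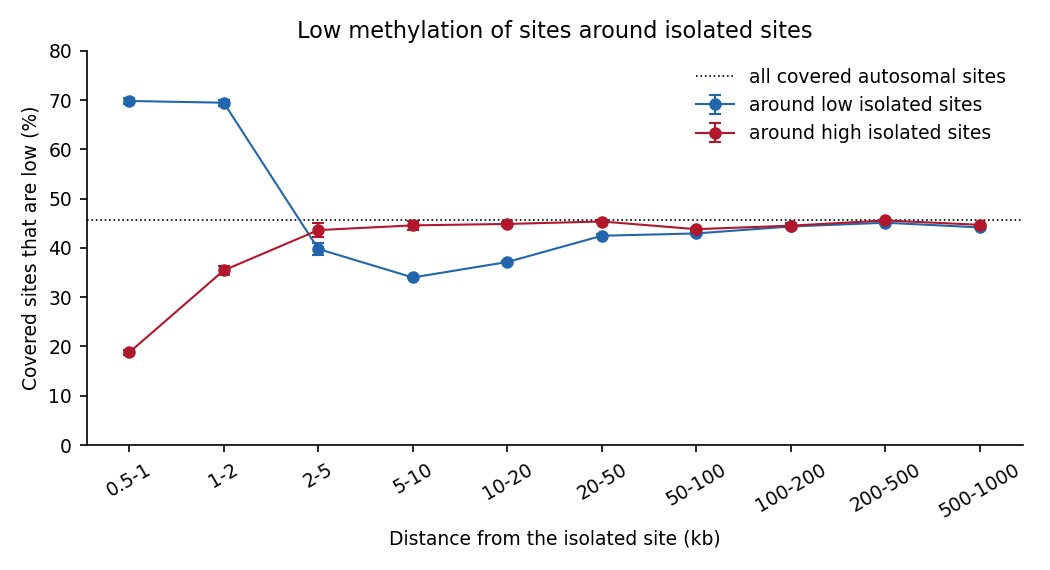
Share of covered autosomal sites that are low, by distance in kb from low and from high isolated sites that have a listed site within 1 kb; points are shares over all pairs by the mean level, error bars the SD of 3 libraries, and the dotted line the share among all covered autosomal sites. Around low isolated sites the share is 69.8% at 0.5 to 1 kb, falls to 34.0% at 5 to 10 kb and nears the dotted line from 20 kb on.

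The nearest covered site that was low in all 3 libraries gave the same picture by distance. For low isolated sites it lay at a median of 1830 bp, a value that ranged from 608 to 23387.5 bp under other settings, with 47.7% ± 0.413 (SD, n = 3) having one within 1 kb and 79.9% ± 0.346 within 100 kb. For high isolated sites the median was 54154 bp, with 6.47% ± 0.182 within 1 kb and 66.0% ± 0.187 within 100 kb. Among sites with any listed site within 1 kb the shares with a low one there were 48.8% ± 0.446 and 11.3% ± 0.311. Low sites that had none within 1 kb were no closer to one than high sites were: their median was 69531 bp against 61483 bp. There were 19 low sites with none within 1 Mb.

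The number of listed sites nearby, used by the rule only within 500 bp, was higher around low than around high sites within 2 kb. Low isolated sites with a neighbour within 1 kb had on average 1.42 ± 0.0076 listed sites within 1 kb and 1.94 ± 0.00255 within 2 kb, against 1.23 ± 0.00290 and 1.62 ± 0.00731 for high sites (SD over libraries, n = 3). The neighbour asked for makes 1 of these sites certain in both classes. Within 50 kb the order was the other way, 13.1 ± 0.0460 against 14.0 ± 0.0187. The spread over sites was not tested.

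Low isolated sites occurred on every autosome, at shares that spanned 12.9 points. They made up between 20.8% ± 0.729 (SD, n = 3) of the covered isolated sites on chromosome 19 and 33.7% ± 0.571 on chromosome 18. Shares by chromosome use the class by mean level, and their SDs come from classing in each library. Chromosome 11 had the most, 151 of 535, and chromosome 16 the fewest, 40 of 153. The low end partly followed the sites beyond 1 kb, which are nearly all high and were 41.0% of the covered isolated sites on chromosome 19 and 37.4% on chromosome 15. With those left out, chromosome 15 rose from 23.9% to 35.2% ± 0.882, in the middle of the autosomes. Chromosome 19 was still the lowest at 29.9% ± 1.35 and chromosome 10 next at 30.6% ± 0.546, a difference within the spread between libraries. In replicate 3 the order of chromosomes 19 and 10 was the other way, at 31.6% and 31.1%. Chromosomes 18 and 13 were then the highest, at 43.7% ± 0.741 and 42.1% ± 0.796. These SDs cover only the classing of the same sites. Whether shares differ between chromosomes by more than the sites' own spread was not tested.

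By region, members were found in 384 of the 475 windows of 5 Mb that had a covered isolated site. In the 215 windows with at least 10 such sites the low share had a median of 27.8% and ranged from 0% to 69.2%, and it was over 50% in 8. The highest share was on chromosome 11 from 90 to 95 Mb, with 9 of 13 sites (69.2% ± 4.44, SD, n = 3). Next came the window of chromosome 3 that starts at 85 Mb, with 18 of 29 (62.1% ± 1.99), and that of chromosome 7 that starts at 15 Mb, with 11 of 18 (61.1%, equal in all libraries). No member lay in 4 windows: those that start at 70 Mb on chromosome 1 (20 sites), at 100 Mb on chromosome 3 (14), at 130 Mb on chromosome 5 (11) and at 35 Mb on chromosome 13 (11). The window with the most members was on chromosome 11 from 115 to 120 Mb, with 24. Windows hold few sites and neighbours within them are alike, so whether these shares differ by more than the sites' own spread was not tested here.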

How the data were processed

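DREAM libraries of 3 ID8 samples were analysed. Bowtie2 and SAMtools and the builds mm9 and rn4 are named in the submitters' processing notes; their versions, read filters and treatment of duplicates were not stated. Per the file headers, the authors deposited counts of methylated, unmethylated and total reads per site, not normalized. The authors also deposited a raw percent, which equals the methylated share of the counts, and an adjusted percent, in which the odds were multiplied by 2.02, 1.81 and 1.73 in replicates 1, 2 and 3 (found from the values). Levels here are from the counts. Shares of sites use the class by mean level unless said to be by library. Their SD is that of the shares classed in each library, so it need not centre on the printed share.

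Members and comparisons were chosen with earlier results of these data known. Sites were named by rule: the 10 deepest, the 5 most remote, the 10 deepest beside a high site (of which 5 are described, and 1 more for its read imbalance), the 5 on either side of the limit, the 5 most variable, the highest and lowest windows, and runs of 3 or more; of each the text details some, picked after their values were seen. The pairs with equal or unequal reads, the shares by distance shell and the split by kind of neighbour were chosen after the values were seen. Library differences used exact sign-flip permutation tests and Fisher's exact tests (Python 3.11.15, scipy 1.17.1). The latter were checked on counts simulated over all covered sites, without extra spread between libraries. That check does not show how well changes at low isolated sites are found. Sites are not replicates, so no test was made over sites. No site sequence is printed, since the reference tables used here are on another build.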

Additional observations from a re-analysis of the deposited data

Results flagged for a closer look

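Reads were also counted at isolated autosomal sites outside the minimum of 10 reads in every library, which the comparisons leave out. In the authors' series table of summed counts, 18491 such sites had at least 10 summed reads, and 2911 of them (15.7%) were under 10% methylated, with a median of 14 summed reads. Without a listed site within 1 kb the low share was 13.6% (2085 of 15278), against 2.37% (35 of 1479) among the covered sites at such distances. Within 1 kb it was 25.7% (826 of 3213), against 36.0% among covered sites. The low share beyond 1 kb therefore differed with the read minimum. At so few reads a count of 0 methylated reads allows levels well above 10%, so these sites cannot be classed firmly.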

How the results depend on the processing

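No paired analysis was possible because the series has a single group. The number of low isolated sites (1598) was 736 with a minimum of 50 reads, 4947 with a spacing limit of 250 bp and 236 with 750 bp; the other 10 settings, which include sites within 1 kb only and autosomes without chromosomes 15 and 19 (both chosen after seeing the data), kept it within 1.5 times, and leaving out a library gave 1698 to 1713, since coverage was then required in 2 libraries. The log2 depth ratio reversed to -0.29 at 750 bp (within 1 kb to -0.060), was 0.35 with 50 reads and 2.18 at 250 bp, and ran from 0.96 to 1.13 with a library left out. The median distance difference reversed to 1 bp with 50 reads, and ran from -373.5 to -162.25 bp with a library left out, the largest without replicate 1. The neighbour difference stayed between 34.1 and 63.7 points in all 14 settings. No member was called under any of 8 settings. The median distance to a site low in all libraries (1830 bp) was 741 and 638.5 bp with 20 and 50 reads, 608 and 23387.5 bp at 250 and 750 bp, 6286 bp with the authors' adjusted percent, 6396.5 and 1119 bp with low limits of 5% and 20%, 1064.5 bp for sites low in each library, 1254 bp within 1 kb and 1425.5 bp without chromosomes 15 and 19 (1947 to 1973 bp leaving out a library), a median that sits where nearly as many sites have a low site within 1 kb (47.7%) as do not. The span of shares over autosomes (12.9 points) was 15.9 and 17.5 with 20 and 50 reads, 7.67 and 10.9 at 250 and 750 bp, 13.7 with the adjusted percent, 13.5 with a limit of 20%, 13.8 within 1 kb and 11.8 without chromosomes 15 and 19 (11.5 to 15.2 leaving out a library); chromosome 19 was not the lowest at 750 bp, and chromosome 18 not the highest with 20 or 50 reads or either spacing. With the adjusted percent, 144 members (9.01%) reached 10% or more and the mean level of the members was 2.56% ± 0.122 (SD, n = 3). What caused the shifts between settings, that of the median distance included, was not tested.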
